A study of Homo sapiens with 2 samples.

Results

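The genes described here build the sugar chains that cells attach to proteins: N-glycans, several kinds of O-glycan, the chondroitin, dermatan and heparan sulfate chains of proteoglycans, and the glycosylphosphatidylinositol (GPI) anchors that hold some proteins on the cell surface. They were chosen by the authors' own calls: a gene is a member if the deposited enrichment table lists it as changed under any of 7 KEGG glycosylation pathways and not under Protein processing in endoplasmic reticulum, Lysosome or Notch signaling. A further pathway of the rule, the 1 on various types of N-glycan, has no row in the table used here. In all 65 of the 2238 changed genes of the table are members. The calls compare SNU-449 cells, an established human hepatocellular carcinoma line grown in RPMI 1640 with 10% fetal bovine serum, treated with ezetimibe for 24 h (1 library) with a control culture (1 library). The labels name no dose and no vehicle for the control. Ezetimibe is a cholesterol-lowering drug that binds the sterol transporter NPC1L1.

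The table holds a direction for each gene and no level, fold change or p-value per gene, so no value per library can be given and nothing here was tested across cultures. In the comparison's name ezetimibe comes first, so up is taken here to mean higher with the drug. With 1 library per condition no difference has a replicate check. Read depth is unknown. No threshold for a call is given in the sources, so members close to it cannot be pointed out. The label of the cells could not be checked against marker levels: of 12 hepatocyte markers 4 were listed, FGA, FGB, FGG and CPS1, all as down, and a gene that is not listed may be unchanged, not expressed or outside the table.

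N-glycans are put together on the lipid dolichol at the endoplasmic reticulum (ER), moved as a block onto asparagine by the oligosaccharyltransferase, and then trimmed, branched and capped in the Golgi apparatus. O-glycans start with a single sugar, for most kinds on serine or threonine, and the kind of that sugar decides which enzymes extend it. Glycosaminoglycan chains grow from a short linker on the proteoglycan core protein and are sulfated as they grow. GPI anchors are built stepwise on a membrane lipid in the ER and joined to proteins by a transamidase. Liver cells make large amounts of N-glycosylated secreted proteins and carry heparan sulfate on their surface.

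Most of the glycosylation genes that changed were listed as down. Of the 65 members 13 were listed as up and 52 as down, a share up of 20%. Over all 2238 changed genes the share up was 32.5%, and over the 2173 changed genes that are no members it was 32.9%. The table called 25.2% of its 8877 background genes changed, 8.20% of them as up and 17.0% of them as down. Membership itself required a call, so these shares are the background for the pathway counts and no support for the members' direction. The members were grouped into 15 lists by role, which together name 208 genes of glycosylation. In 7 lists all members were down, in 2 all were up, in 5 both directions occurred, and the oligosaccharyltransferase list held no member. Several of these lists are small. The N-glycan trimming (down) and branching (up) lists held 1 member each, and the linker (up) and heparan sulfate chain (down) lists 2 each. Since 67.5% of all changed genes were down, a list with few members can be all down without a trend of its own.

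**Figure D1:**
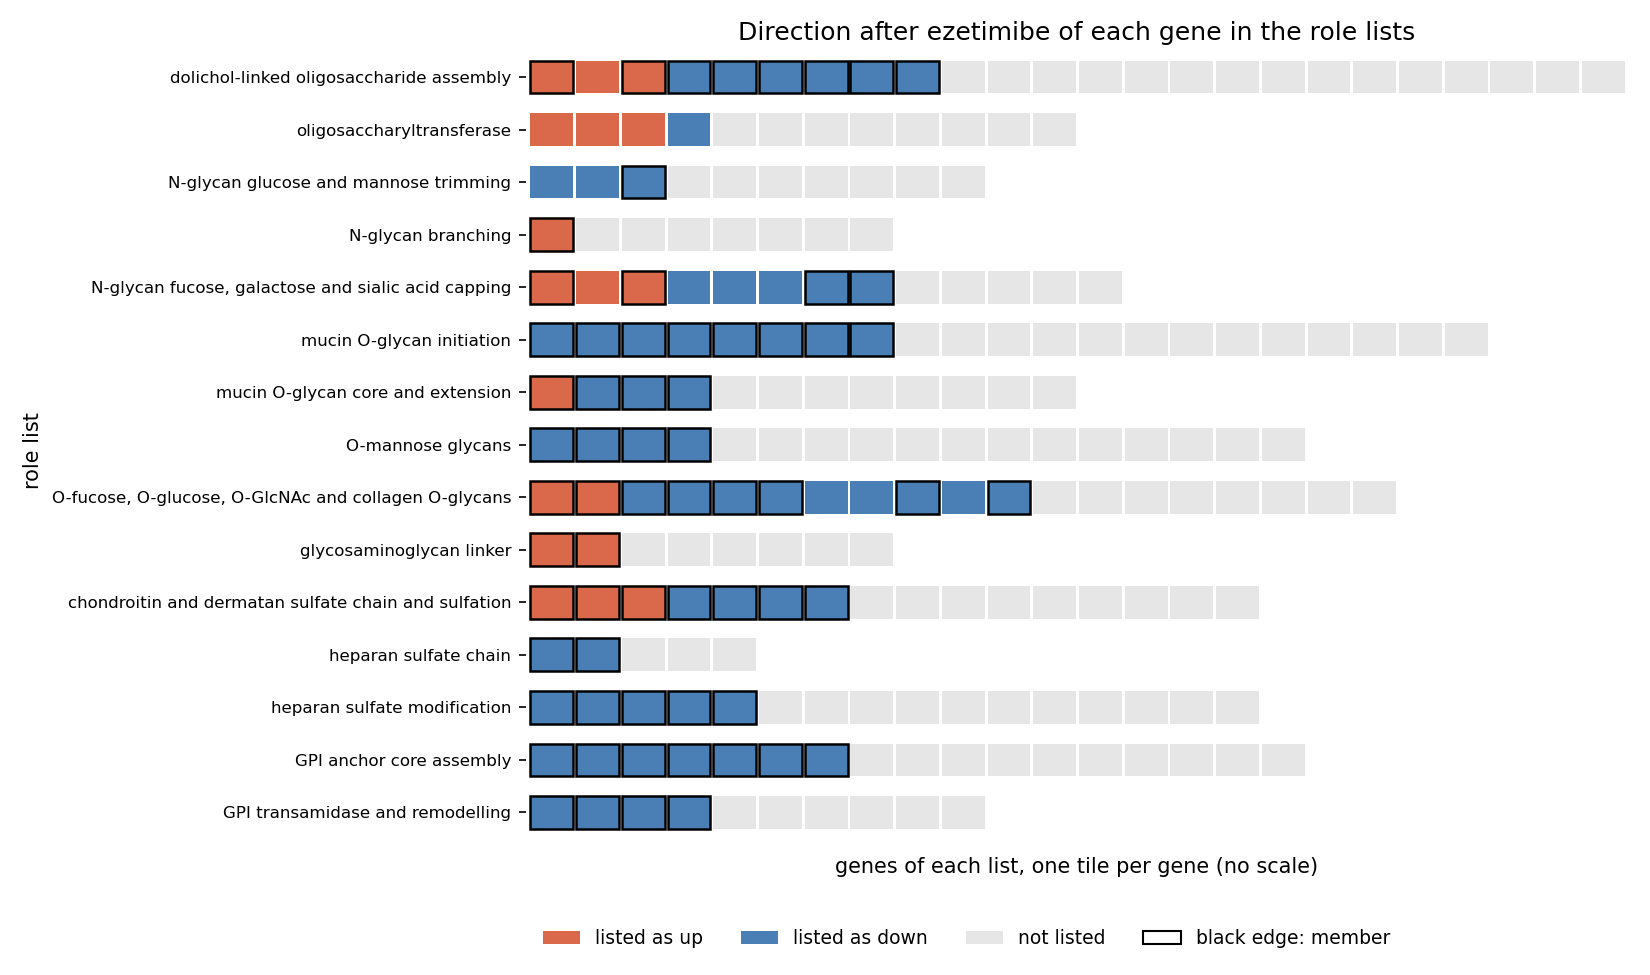
Each tile is 1 gene of the 15 role lists (rows), coloured by its direction after ezetimibe in the authors' deposited table, and a black edge marks the 65 members. The GPI, heparan sulfate, O-mannose and GALNT rows hold members in the down colour only, and the linker row holds 2 in the up colour.

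By KEGG pathway, Other types of O-glycan biosynthesis had the highest share of its background genes called changed, 59.1% or 13 of 22 genes (4 up, 9 down), and GPI-anchor biosynthesis had 11 of 26 (0 up, 11 down). Chondroitin and dermatan sulfate biosynthesis had 9 of 21 genes, with 5 up and 4 down. Mucin type O-glycan biosynthesis had 12 of 31 genes (1 up, 11 down), N-Glycan biosynthesis 19 of 52 (7 up, 12 down) and heparan sulfate and heparin biosynthesis 9 of 25 (2 up, 7 down). Mannose type O-glycan biosynthesis, with 6 of 24 genes (2 up, 4 down), had the lowest share, near the background of 25.2%. In the authors' deposited table Other types of O-glycan biosynthesis had a rich factor (share of changed genes in the pathway over share of background genes in it) of 2.34 with p = 0.00370 and q = 0.0311. The other 6 pathways had an authors' p between 0.0721 and 1 in the authors' deposited table. Genes, not cultures, are what such p-values count, and they compare 2 libraries.

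**Figure D2:**
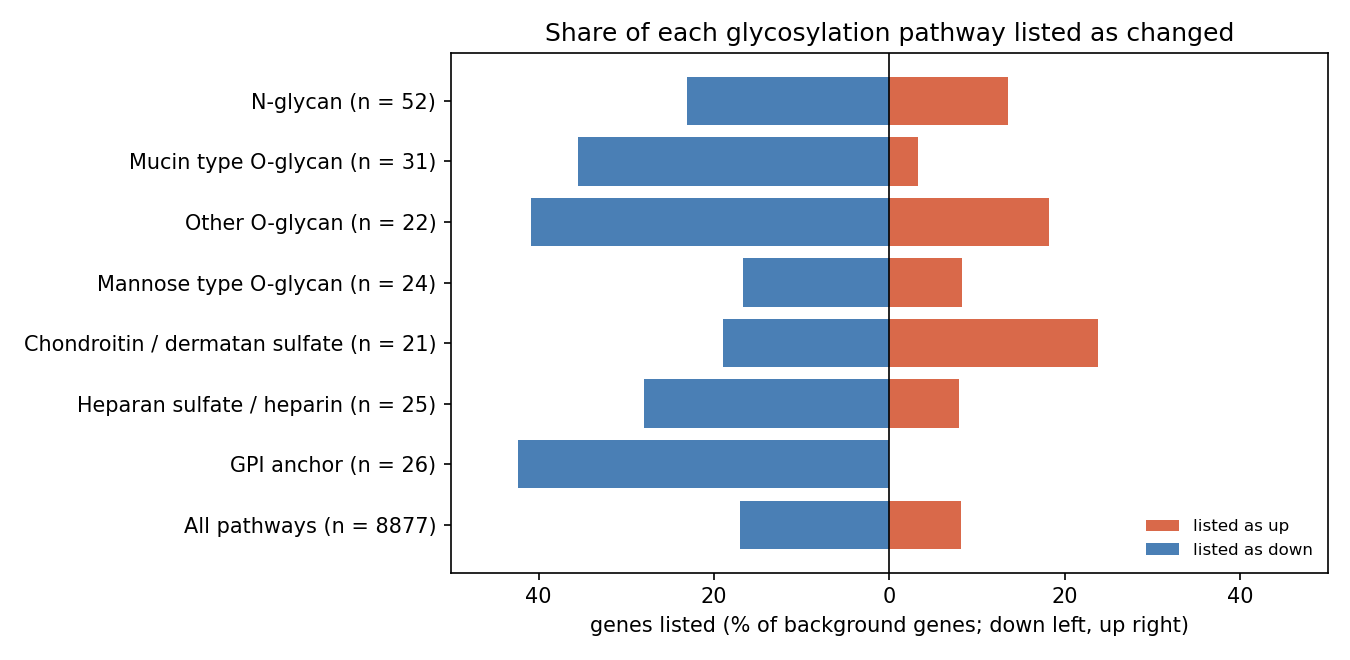
Bars give the share of each pathway's background genes (number in brackets) that the authors' deposited table lists as down (left) and up (right) after ezetimibe, with all pathway genes in the bottom row. GPI anchor genes reach 42.3% down and 0% up, and chondroitin and dermatan sulfate is the row where the up bar, 23.8%, is longer than the down bar, 19.0%.

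Every member of the GPI anchor pathway was listed as down. The 11 members act at early or late steps of assembly, at the joining to protein, or after it. PIGW acylates the inositol, PIGM with its partner PIGX adds the first mannose, PIGV the second and PIGZ the fourth. PIGN adds ethanolamine phosphate to the first mannose, and PIGF is the partner of the transferases that add it to later mannoses. PIGK is the catalytic subunit of the transamidase that joins anchor and protein, and PIGU is another subunit of it. PGAP1 removes the acyl chain from the inositol afterwards, and GPLD1 is a secreted phospholipase that cuts anchors. Of the 17 genes in the core assembly list 7 were listed, and of the 10 in the transamidase and remodelling list 4. The genes of the enzyme that starts the pathway (PIGA, PIGC, PIGH, PIGP, PIGQ and PIGY) were not listed.

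The mucin-type O-glycan members were down with 1 exception. All 8 listed polypeptide GalNAc-transferases, the enzymes that start these chains, were down: GALNT1, GALNT2, GALNT10, GALNT11, GALNT12, GALNT14, GALNT18 and POC1B-GALNT4. The list of these enzymes has 21 genes, of which 38.1% were listed. The background is 25.2% of genes called changed and 17.0% listed as down, and 67.5% of all changed genes were down. POC1B-GALNT4 is a read-through gene, and 91.5% of its exonic bases in GENCODE release 29 lie in exons of GALNT4 on the same strand. GALNT4 was not listed, so the reads of these genes may not have been told apart. C1GALT1, which makes the core 1 disaccharide, and C1GALT1C1, the chaperone it needs, were both down, as was the core 2 branching enzyme GCNT4. The exception was ST3GAL1, listed as up, which caps core 1 with sialic acid.

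Under the KEGG pathways of the other O-glycan routes the share up of the changed genes, 30.8% for Other types and 33.3% for Mannose type, was near the 32.5% of all changed genes. These counts include genes described with other roles here. For O-mannose glycans, which link dystroglycan to the matrix, 4 of the 17 genes of the list were listed (23.5%), all as down. That share is near the 25.2% of all background genes called changed. Among the 4 were the kinase POMK, the glucuronyltransferase B4GAT1 and LARGE2, named GYLTL1B in the table. On epidermal growth factor-like repeats, the O-glucosyltransferase POGLUT1, the xylosyltransferase GXYLT1 that extends its product, and EOGT, which adds GlcNAc in the ER, were down. OGT, which adds GlcNAc to proteins inside the cell, was down too. Successive enzymes of 2 routes were listed in opposite directions. On thrombospondin repeats, POFUT2, which adds fucose, was up and B3GLCT, which adds glucose to that fucose, was down. On collagen, PLOD3, which has lysyl hydroxylase and glucosyltransferase activity, was up and the galactosyltransferase COLGALT2 was down. PLOD2, another lysyl hydroxylase and no member, was down.

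The N-glycan members were listed in both directions, 5 up and 9 down, a share up near the 32.5% of all changed genes. In the dolichol-linked assembly list 2 members were up and 6 down. ALG2, a mannosyltransferase, and DOLPP1, which recycles dolichol pyrophosphate, were up. DHDDS, of the same list and no member, was up too. The down members were ALG13, part of the enzyme that adds the second GlcNAc, the glucosyltransferases ALG6, ALG8, ALG10 and ALG10B, and DPM3, a subunit of the enzyme that makes dolichol phosphate mannose. ALG6, ALG8 and the ALG10 genes add the glucose residues that the oligosaccharyltransferase recognises. ALG10 and ALG10B are copies of each other: their longest transcripts were 96.4% identical over 3132 aligned columns, so reads may not have been assigned to the right copy.

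In the Golgi, MGAT1, which starts complex N-glycans, was up, and MAN2A1, the mannosidase that acts after it, was down. The galactosyltransferase B4GALT3 and the sialyltransferase ST3GAL3 were up, and the core fucosyltransferase FUT8 and the sialyltransferase ST6GAL2 were down. Of the 13 genes of this capping list 8 were listed (61.5%), 3 up and 5 down, against a background of 25.2% called changed. Those that are no members were HEXA (up) and B4GALNT3, B4GALNT4 and CHST9 (down). Of B4GALT3's exonic bases 28.7% lie under exons of PPOX on the opposite strand, and the sources do not say whether the authors' counting used strand. Outside the members, 3 of the 4 listed oligosaccharyltransferase genes were up (STT3A, RPN1 and DDOST) and STT3B, the other catalytic subunit, was down. These 4 genes, MAN1A2, MAN1C1 and the Fringe enzymes LFNG and MFNG (all 4 down) are the 8 genes that the rule removed, 3 up and 5 down in all.

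Of the glycosaminoglycan members 5 were up and 11 down, a share up near the 32.5% of all changed genes. Of the 8 genes of the linker list 2 were listed, the galactosyltransferases B4GALT7 and B3GALT6, both as up. That share is near the 25.2% of all background genes called changed. Over all background genes 17.0% were listed as down. Of the 21 genes in the lists for building or modifying heparan sulfate 7 were listed (33.3%), all members and all down. Among these, EXTL3 starts the chain and EXTL2 transfers a sugar to the linker, NDST1 removes acetyl groups and adds N-sulfate, and GLCE converts glucuronic to iduronic acid. HS2ST1, HS6ST2 and HS3ST1 add sulfate at different positions. The polymerase genes EXT1 and EXT2 were not listed. The 2 members up under the heparan sulfate pathway of KEGG are the linker enzymes, which the chondroitin sulfate pathway also holds.

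The chondroitin and dermatan sulfate members were split, with 3 up and 4 down. Up were CSGALNACT2, which starts the chain, and the polymerising factors CHPF and CHPF2. Down were CSGALNACT1, the paralog of CSGALNACT2, the synthase CHSY3, and the sulfotransferases CHST7 and CHST14, the latter acting on dermatan sulfate. The longest transcripts of CSGALNACT1 and CSGALNACT2 aligned over 591 columns with 75.6% identity.

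The genes around these pathways, taken from context lists, are read against the same background of 25.2% of genes called changed. Of 28 genes that make nucleotide sugars and sulfate donors, 10 were listed, 7 up (GFPT1, UAP1L1, PMM2, GMPPA, GMPPB, GFUS and NANS) and 3 down (UGP2, UGDH and FPGT). UGDH makes the UDP-glucuronic acid that glycosaminoglycans need, and GMPPA, GMPPB and PMM2 serve the supply of GDP-mannose. Of 22 proteoglycan core proteins 6 were listed (27.3%), all as down: the syndecans SDC1 and SDC2, the glypican GPC4, agrin AGRN, perlecan HSPG2 and versican VCAN. Of 15 ER lectins and quality control genes 8 were listed, 5 up (CALR, PDIA3, LMAN2, OS9 and FBXO6) and 3 down (UGGT2, EDEM3 and FBXO2).

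Of 30 genes that degrade glycosaminoglycans and glycoproteins 10 were listed, 4 up (IDUA, HEXA, NEU1 and MAN2C1) and 6 down (ARSB, HGSNAT, HYAL2, HPSE, NEU3 and AGA). Of 14 keratan sulfate genes 8 were listed, 6 up and 2 down. They include the members ST3GAL1, ST3GAL3 and B4GALT3 (up) and FUT8 (down), and besides these B3GNT7, CHST1 and CHST2 were up and B4GALT4 was down. Of 22 glycosphingolipid genes 7 were listed, ST6GALNAC4 and FUT3 as up and B4GALT6, ST3GAL5, ST3GAL6, B3GALNT1 and B3GNT5 as down. Within enzyme families this gives B4GALT3 and B4GALT7 up against B4GALT4 and B4GALT6 down, and ST3GAL1 and ST3GAL3 up against ST3GAL5 and ST3GAL6 down.

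The members' direction went with the base composition and size of their genes. The GC content of the longest GENCODE transcript had a median of 56.0% in up members (range 38.2 to 67.6) and 43.8% in down members (33.3 to 62.9). The ranges overlapped. The highest value among the up members belonged to CHPF (67.6%, chr2:219538947-219543787 in GENCODE on GRCh38) and the lowest to CSGALNACT2 (38.2%), and among the down members the extremes were CHST7 (62.9%) and ALG10B (33.3%). The median gene span was 10248 bases for up members and 71691 for down members. The median transcript length was 3178 and 4204 bases. Over all changed genes the median span was 17892 bases for up and 52751 for down, and the median length 2860 and 4401.

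The same trend is present over all changed genes, where the median GC content was 55.2% for up and 43.6% for down. When all changed genes were divided into 3 equal parts at GC contents of 43.1% and 53.1%, 1 of 26 members in the lowest part was up (3.85%), against 6.84% of all 746 changed genes there. In the middle part 3 of 20 members were up (15.0%, against 33.0% of all), and in the highest part 9 of 19 (47.4%, against 57.8%). CSGALNACT2 (chr10:43138486-43185308) was the member listed as up in the lowest part. The part played by base composition in the members' directions was not tested.

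**Figure D3:**
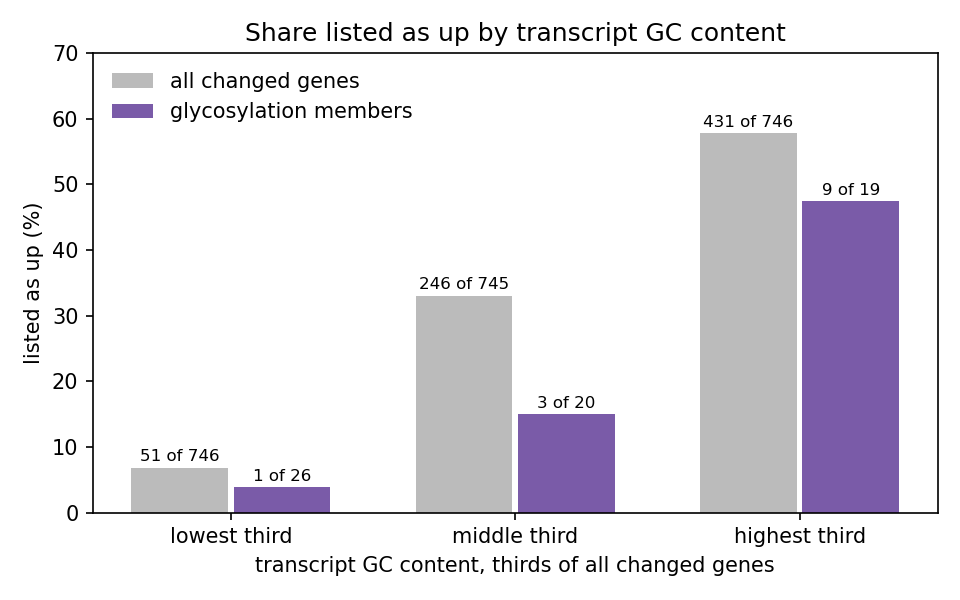
Bars give the percentage listed as up among all changed genes (grey) and glycosylation members (purple) in 3 equal parts of the changed genes ordered by transcript GC content, with counts above the bars. Both are higher in the highest part than in the lowest, going from 6.84% to 57.8% and from 3.85% to 47.4%.

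The GPI and heparan sulfate members, all listed as down, had median transcript GC contents of 42.2% and 44.7%. The median over all changed genes was 47.0%. Most members of both groups were in the lowest or middle part. Of the 11 GPI members 6 were in the lowest part, 4 in the middle and 1, PIGZ (60.0%, chr3:196946343-196969060), in the highest. The 7 heparan sulfate members were spread as 2, 4 and 1, the last being NDST1 (56.6%, chr5:150485818-150558211). Of the 8 GALNT members GALNT2, GALNT14 and GALNT18 were in the highest part, at 55.7%, 58.8% and 57.1%. The remaining GALNT members were in the lowest or middle part. Other down members of the highest part were B4GAT1, CHST7, CHST14, DPM3 and LARGE2.

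The promoters of up and down members had medians closer together than the transcripts. A promoter here is the stretch from 250 bases before to 50 after the first start that the RefSeq table (GRCh38.p14) gives for a gene, and 52 of the 65 members matched, 12 up and 40 down. The median promoter GC content was 69.7% for up members (41.3 to 79.7) and 65.8% for down members (36.0 to 84.3). The ratio of observed to expected CpG was 0.854 for up members and 0.845 for down members. Over all changed genes the median promoter GC content was 65.7% for up and 65.0% for down.

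**Figure D4:**
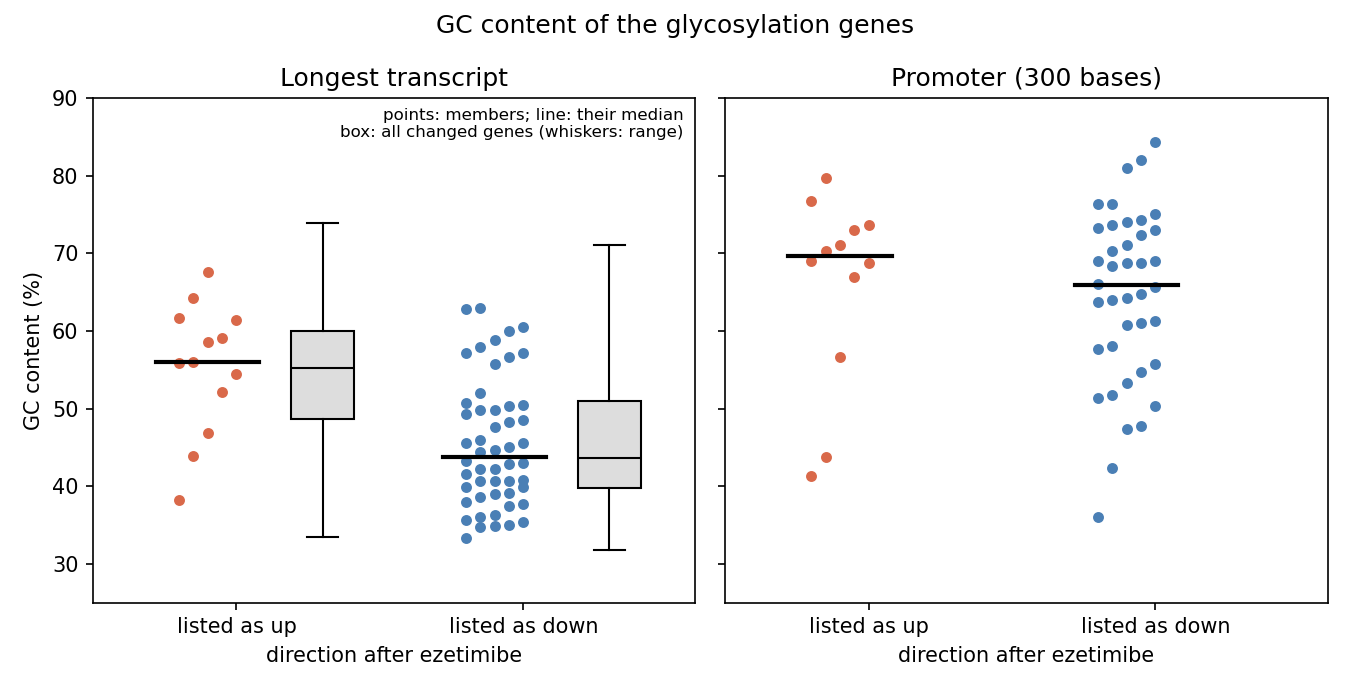
Points give the GC content of each member's longest transcript (left) and promoter (right) by direction, and black lines the members' medians. Boxes, in the left panel only, give all changed genes (box from the lower to the upper quartile, whiskers the range). Transcript medians lie at 56.0% for up and 43.8% for down, and promoter medians at 69.7% and 65.8%.

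The next sequences show this spread at its ends, for members with a single start in the RefSeq table that lies in a GENCODE transcript. ALG2 had the lowest promoter GC content among such members listed as up (56.7%), and PIGZ the highest among those listed as down (84.3%). This pair runs against the order of the medians. Over all up members with a promoter the lowest value was that of B4GALT3 (41.3%). Printed are the 250 bases before the RefSeq start, 5′ to 3′ on the strand of the gene, with CG pairs in capitals. They are given for ALG2 (chr9:99221943-99222192, minus strand) and PIGZ (chr3:196968834-196969083, minus strand), both on GRCh38.p14. Most of the PIGZ stretch lies inside the GENCODE gene, which reaches to base 196969060. The stretch of ALG2 has 14 CG pairs and that of PIGZ 44.
ALG2: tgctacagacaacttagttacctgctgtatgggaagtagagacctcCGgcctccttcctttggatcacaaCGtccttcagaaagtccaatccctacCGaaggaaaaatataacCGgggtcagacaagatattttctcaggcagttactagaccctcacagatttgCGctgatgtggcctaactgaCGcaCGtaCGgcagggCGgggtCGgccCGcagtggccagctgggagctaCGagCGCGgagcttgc
PIGZ: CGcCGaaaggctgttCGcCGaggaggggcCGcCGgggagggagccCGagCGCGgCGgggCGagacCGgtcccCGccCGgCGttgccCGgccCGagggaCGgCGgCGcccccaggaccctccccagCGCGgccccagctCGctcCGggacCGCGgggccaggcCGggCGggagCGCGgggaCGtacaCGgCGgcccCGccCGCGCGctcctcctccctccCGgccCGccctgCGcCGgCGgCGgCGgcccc

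Promoters were also searched on both strands for motifs of factors that respond to ER stress, sterols and lysosomal stress. The ER stress element (CCAAT, any 9 bases, CCACG) was in 0 of 52 members' promoters. It was in 0.166% of all changed genes and in 0.0806% of the 27305 genes with a promoter in the table. The UPR element TGACGTGG was in 1 member (1.92%), GPLD1, on the minus strand from 32 bases after the start. It was in 1.27% of all changed genes and 0.795% of all genes. The amino acid response motif TGATGNAA was in 1 member (1.92%), FUT8, against 2.33% of all changed genes and 3.67% of all genes. The CLEAR element TCACGTGA, which reads the same on both strands, was in 1 member (1.92%), EXTL2. That share is near the 1.94% of all changed genes, and 1.04% of all genes held the element. The GC box GGGCGG was in 40 of 52 members (10 of 12 up, 30 of 40 down) in 68.7% of all changed genes and in 44.6% of all genes. These motifs other than the GC box were found in no member listed as up. Only 12 up members had a promoter, and each motif is in at most 3.67% of all genes, so few matches could occur.

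The sterol regulatory motif TCACNCCAC was in 2 members' promoters, GXYLT1 and PIGM, both listed as down, and in 1.15% of all genes. Of all changed genes, 0.517% of those listed as up and 1.31% of those listed as down held it. The match lies 126 to 118 bases before the start in GXYLT1 and 103 to 95 bases before it in PIGM. A match describes the letters of the window and is not a binding site. Both stretches are shown because they are the members' matches to the motif of the factor that responds to sterol supply. The 250 bases before the start follow, 5′ to 3′ on the gene's strand, with the match in capitals, for GXYLT1 (chr12:42144875-42145124, minus strand) and PIGM (chr1:160031991-160032240, minus strand) on GRCh38.p14.
GXYLT1: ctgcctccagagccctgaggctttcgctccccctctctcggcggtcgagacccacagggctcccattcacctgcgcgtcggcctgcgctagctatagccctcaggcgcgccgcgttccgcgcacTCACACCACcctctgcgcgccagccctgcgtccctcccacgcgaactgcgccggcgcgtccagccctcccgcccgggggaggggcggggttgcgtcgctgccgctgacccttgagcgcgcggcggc
PIGM: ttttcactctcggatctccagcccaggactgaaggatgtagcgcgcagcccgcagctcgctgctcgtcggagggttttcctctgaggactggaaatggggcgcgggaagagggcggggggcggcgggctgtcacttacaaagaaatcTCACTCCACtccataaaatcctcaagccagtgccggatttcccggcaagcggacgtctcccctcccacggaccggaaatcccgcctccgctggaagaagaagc

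The members stood under 1 to 6 pathways of the table, with a median of 2, which is also the median over all changed genes. Outside the pathways of the rule, the general pathway Metabolic pathways held 50 members (10 up, 40 down) and keratan sulfate biosynthesis 4. B4GALT3, under 6 pathways, had the most. Members lay on 20 chromosomes, with 12 on chromosome 1 (3 up), 7 on chromosome 5 (2 up) and 5 on the X chromosome (0 up). Of all changed genes on these chromosomes 32.4%, 23.9% and 27.1% were up. Exons of 5 members overlapped another protein-coding gene by more than 10% of their exonic bases. Besides POC1B-GALNT4 and B4GALT3 these were PIGW (20.8%, MYO19), PIGF (13.2%, RHOQ) and ST3GAL3 (10.0%, AL451062.3). Reads of these members may not have been told apart from those of the other gene. The percentages do not measure how far their directions were affected, which was not tested.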

How the data were processed

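RNA of 1 control and 1 ezetimibe culture was sequenced. HISAT2 2.0.4 and StringTie 1.3.0 are named in the submitters' processing notes; settings, genome build, annotation and strand were not given in those notes or the other sources used here. The file deposited by the authors has, per the file headers, the number of changed and background genes of each pathway, its genes listed as up and down, an enrichment ratio (rich factor), and the p-value and q-value of the enrichment. The authors' p and q were copied, not recomputed. No gene had more than a direction, so nothing was tested and depth is unknown.

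Members and lists were chosen with earlier results of these data known. Members are named under their role list, apart from 1 that is not reported here, and all listed genes of the context lists. Symbols were matched to the table by Ensembl gene ID (LARGE2 through its older symbol). Positions, GC content and length came from GENCODE release 29 (GRCh38), using the longest transcript. Promoters came from RefSeq (GRCh38.p14), matched through Entrez gene ID, taking the first of a gene's starts; printed promoters were chosen after their values were seen, since the planned choice, ER stress and UPR elements, left 1 match, after the start of GPLD1. The planned protein comparison was not made, and transcripts of 2 gene pairs chosen afterwards were aligned instead (Biopython local alignment). Counting, GC content and motif search were tested on made-up tables with known answers. Python 3.11.15, NumPy 2.4.6, SciPy 1.17.1, Biopython 1.88 and Matplotlib 3.10.9 were used.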

Additional observations from a re-analysis of the deposited data

How the results depend on the processing

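Down calls outnumbered up calls among the members under all 13 alternative choices of members, as they do over all changed genes (67.5% down). The share up was between 15.5% and 36.4%, against the reported 20%. These choices are overlapping subsets or extensions of the same genes, and leaving out genes under more than 20 pathways removed none. The highest share came from keeping only pathways with an authors' p below 0.05, which left a single pathway with 4 members up and 7 down (36.4%). Keeping the 8 removed genes gave 16 up and 57 down, leaving out the GPI pathway 13 up and 41 down, and leaving out the members with overlapping exons and the ALG10 copies, an alternative chosen after seeing the data, 11 up and 47 down. The median transcript GC content of down members minus that of up members was -12.26 percentage points, -11.77 with the mean over all transcripts and -7.37 among members within the middle 50% of changed genes. Using any start of a gene, also chosen afterwards, left the same members with each motif other than the GC box, found then in 46 of 52. No paired analysis was possible because each condition has 1 library. The table has no depth, level or replicate, so neither the size nor the repeatability of any call can be given.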
